A study of Mus musculus with 30 samples.

Results

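The vesicular glutamate transporter genes *Slc17a6* (VGLUT2), *Slc17a7* (VGLUT1) and *Slc17a8* (VGLUT3) were followed in whole-brain RNA-Seq of *Arid1b* heterozygous mice and their controls. They were chosen by name and are 3 of the 19737 genes measured. There were 30 libraries, 1 per male C57BL/6N mouse, in 6 groups of 5. At postnatal day 10 (P10) the groups were untreated wild-type (WT) and *Arid1b*+/- (HT) mice. At P120 they were WT and HT mice of 2 treatments each (WT-Veh and HT-Veh, WT-Flx and HT-Flx), whose dams drank 0.2% saccharin water with 0.1 mg/ml fluoxetine (Flx) or without it (Veh) from P3 to P21. The drug therefore reached the pups through milk and had been withdrawn long before sampling. HT mice carry 1 copy of *Arid1b* with a protein-truncating mutation at exon 5, in every cell of the body. The labels do not say which mice were littermates.

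A vesicular glutamate transporter loads glutamate from the cytosol into synaptic vesicles, driven by the proton gradient of the vesicle, and a neuron that makes one can release glutamate. VGLUT1 is the main form in cerebral cortex, hippocampus and cerebellar granule cells, and VGLUT2 in thalamus, brainstem and hypothalamus. VGLUT2 appears earlier in development than VGLUT1, which rises in postnatal forebrain. VGLUT3 is found in sparse populations that mostly use another transmitter, such as serotonergic neurons, striatal cholinergic interneurons and cholecystokinin basket cells.

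In GRCm38, *Slc17a6* (ENSMUSG00000030500) lies at chr7:51622006-51671119 on the plus strand and *Slc17a7* (ENSMUSG00000070570) at chr7:45163949-45176142 on the same strand. *Slc17a8* (ENSMUSG00000019935) lies at chr10:89574020-89621253 on the minus strand. The principal transcript of each has 12 exons. It is 4137 bp long for *Slc17a6*, 2915 bp for *Slc17a7* and 4456 bp for *Slc17a8*. The longest coding transcript of *Slc17a7* has a GC content of 58.52%, against 42.88% for *Slc17a6* and 43.99% for *Slc17a8*.

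*Slc17a7* moved with age in the opposite direction to the other 2 genes. The 250 bases before 1 start of each gene are shown side by side, and their part in these changes was not tested. The bases come from RefSeq (GRCm38.p6), and all 3 genes were found there, with 2 starts for *Slc17a6*, 1 for *Slc17a7* and 2 for *Slc17a8*. The windows span chr7:51621580-51621829 (plus strand), chr7:45163671-45163920 (plus strand) and chr10:89621250-89621499 (minus strand), and end 176, 28 and 4 bases from the gene starts given by GENCODE. Capitals mark the E-box letters CANNTG and the GC-box letters GGGCGG or CCGCCC, searched on both strands.
Slc17a6: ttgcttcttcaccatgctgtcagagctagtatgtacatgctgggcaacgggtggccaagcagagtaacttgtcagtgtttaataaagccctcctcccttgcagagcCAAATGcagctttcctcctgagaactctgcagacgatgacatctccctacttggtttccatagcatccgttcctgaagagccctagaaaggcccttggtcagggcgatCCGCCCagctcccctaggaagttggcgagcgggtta
Slc17a7: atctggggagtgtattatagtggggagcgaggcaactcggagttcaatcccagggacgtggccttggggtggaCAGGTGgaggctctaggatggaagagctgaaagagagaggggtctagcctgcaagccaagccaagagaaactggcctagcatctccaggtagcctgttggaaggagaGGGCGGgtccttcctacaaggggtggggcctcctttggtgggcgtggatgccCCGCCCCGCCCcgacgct
Slc17a8: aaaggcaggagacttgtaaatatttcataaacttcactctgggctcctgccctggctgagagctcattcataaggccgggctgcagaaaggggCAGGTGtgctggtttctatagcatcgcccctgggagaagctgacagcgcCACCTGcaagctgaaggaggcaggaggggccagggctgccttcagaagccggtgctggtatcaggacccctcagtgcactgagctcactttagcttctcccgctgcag
The *Slc17a7* window held 3 GC boxes, 2 of which overlap, and 1 CANNTG. The *Slc17a6* window held 1 of each, and the *Slc17a8* window held 2 CANNTG and no GC box. None held TATAAA. Among 32851 windows of the same length, 66.22% held CANNTG, 32.74% held GGGCGG and 12.37% held TATAAA. CpG dinucleotides numbered 7, 9 and 5, against a median of 6 over all windows, and the GC content was 53.2%, 61.2% and 57.2%.

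Values are the authors' normalized counts, which are not whole reads, so the read depth is unknown and only the spread between mice measures precision. The normalized counts summed to between 31578614 and 32445809.6 per library at P10 and to between 32484635 and 41801037 at P120. *Arid1b* was lower in HT than in WT mice at P10 in every library (2162 to 2334 against 3164 to 3309). At P120 the library labelled HT-Veh replicate 2 had 3361 normalized counts of *Arid1b*, above every other HT library, and the library labelled WT-Veh replicate 2 had 2320, below every other WT library. Both were kept under their labels, and values without them are given beside most of the results that include them. The P120 libraries also differed in how gene levels followed GC content. The GC slope of a library, the change in log2 level relative to the mean of all libraries per 10 points of GC, was −0.27 to −0.17 in WT-Flx and 0.43 to 0.85 in HT-Flx. It ran from −0.13 to 0.34 in WT-Veh and from −0.25 to 0.57 in HT-Veh, and from −0.46 to −0.24 at P10. Finally, 9 markers of cerebellar granule cells summed to 4488 and 7115 in WT-Flx replicates 2 and 5 and to 9836 and 14272 in WT-Veh replicates 1 and 2, against 23696 or more in each of the other P120 libraries. *Atoh1*, a marker of granule cell progenitors, was listed at 0 in 19 libraries, all at P120.

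*Slc17a7* was the most abundant of the 3 genes in each of the 30 libraries and *Slc17a8* the least abundant. Per kb of principal transcript, the P10 WT means were 8919 ± 690.0 (SD, n = 5) normalized counts for *Slc17a7*, 1041 ± 30.7 for *Slc17a6* and 64.4 ± 0.499 for *Slc17a8*. *Slc17a7* thus made up 87.7% to 90.2% of the per-kb sum of the 3 genes at P10 in WT mice and 87.7% to 89.1% in HT mice. At P120 its share was 94.3% to 97.3% in WT-Veh, 92.5% to 95.7% in WT-Flx, 93.6% to 98.3% in HT-Veh and 97.1% to 98.8% in HT-Flx. The share of *Slc17a8* was under 1% in every library. In whole-brain RNA, fewer cells of a type and less RNA per cell cannot be told apart.

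**Figure D1:**
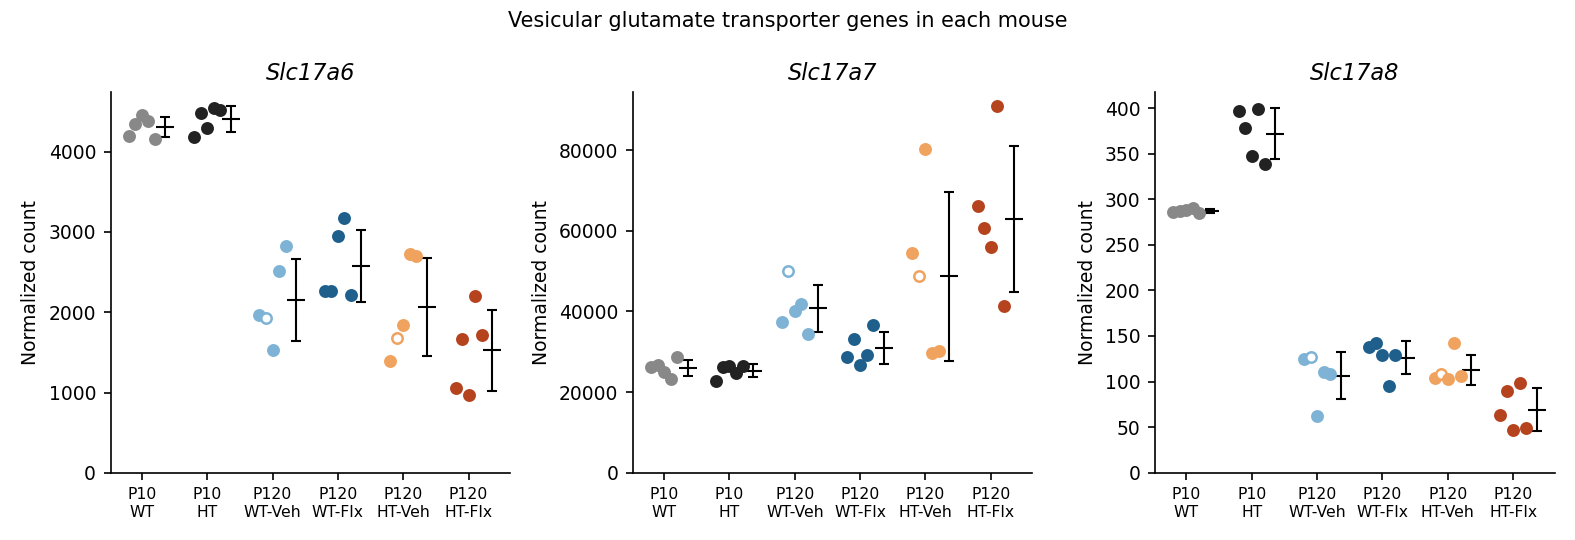
Normalized count (y axis, linear, from 0) of each transporter gene in the 6 groups; each point is 1 mouse, replicates 1 to 5 from left to right, with the mean and SD beside them, and open points are the libraries labelled WT-Veh replicate 2 and HT-Veh replicate 2. Slc17a6 and Slc17a8 were lower at P120 than at P10 in every mouse, and the HT-Flx mice reached the lowest values of both, 973 and 46.4.

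Ordered by group mean, *Slc17a6* ran from P10 HT (4406 ± 158, SD, n = 5) and P10 WT (4305 ± 127) down to WT-Flx (2575 ± 453), WT-Veh (2153 ± 516), HT-Veh (2068 ± 613) and HT-Flx (1524 ± 509.9). The only gap between neighbours in this order was between the P10 and the P120 groups. *Slc17a7* ran the other way, from HT-Flx (63021 ± 18112), HT-Veh (48674 ± 20891), WT-Veh (40753 ± 5852) and WT-Flx (30861 ± 3970.2) to P10 WT (25998 ± 2011) and P10 HT (25334 ± 1593), and each group overlapped its neighbours. *Slc17a8* ran from P10 HT (372 ± 27.9) and P10 WT (287 ± 2.22) to WT-Flx (126 ± 18.4), HT-Veh (113 ± 16.6), WT-Veh (106 ± 26.1) and HT-Flx (69.3 ± 23.6). Here P10 HT stood clear of P10 WT, P10 WT stood clear of the P120 groups, and the P120 neighbours overlapped.

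Between P10 and P120, *Slc17a6* and *Slc17a8* fell and *Slc17a7* rose, in both genotypes. The comparison sets vehicle mice at P120 against untreated mice at P10. Age, early saccharin, and the prefix of the library names, which differs between the ages, therefore cannot be told apart.

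For replicates 1 to 5, *Slc17a6* had 4191, 4345, 4453, 4379.9 and 4155 normalized counts in WT mice at P10 and 1968, 1928, 1527, 2513 and 2829 in WT-Veh mice at P120. In HT mice it had 4187, 4485, 4293, 4542 and 4525 at P10 and 1387, 1677, 1847, 2728 and 2702 in HT-Veh at P120. No P120 value reached the lowest P10 value in either genotype. The log2 fold change was −1.03 in WT (standard error 0.13, adjusted p = 2.32e-05, limma) and −1.14 in HT (standard error 0.17, adjusted p = 0.000147, limma), a level at P120 of 0.489 and 0.453 times that at P10.

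*Slc17a7* had 26324, 26842, 24861, 23329 and 28633 normalized counts in P10 WT mice and 37376, 49929, 40158.5, 41859.5 and 34442 in WT-Veh mice. In P10 HT mice it had 22794, 26274, 26525, 24727 and 26349, and in HT-Veh mice 54575, 48701, 80354, 29608 and 30131. Every P120 mouse lay above every P10 mouse of its genotype, but the HT-Veh mice were widely spread, with replicate 3 far above replicates 4 and 5. The log2 fold change was 0.64 in WT (standard error 0.095, adjusted p = 7.55e-05, limma) and 0.84 in HT (standard error 0.23, adjusted p = 0.00893, limma).

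*Slc17a8* had 285, 287, 288, 290.3 and 285 normalized counts in P10 WT mice and 124, 127, 62.0, 111 and 109 in WT-Veh mice. It had 397, 378, 347, 399 and 339 in P10 HT mice and 104, 108, 103, 142 and 106 in HT-Veh mice. This was the largest change of the 3 genes in both genotypes. The log2 fold change was −1.47 in WT (standard error 0.17, adjusted p = 9.19e-06, limma) and −1.72 in HT (standard error 0.13, adjusted p = 4.19e-07, limma), so that 0.362 and 0.304 times the P10 level was left.

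All 3 genes passed the threshold in both genotypes, against 58.3% of the 17927 genes tested in WT and 51.1% of 17989 in HT, so that passing it was common. The groups of all 3 also did not overlap, which held for 45.6% of genes in WT and 40.2% in HT. Without the library labelled WT-Veh replicate 2 the log2 fold changes in WT were −1.001, 0.56 and −1.54 for *Slc17a6*, *Slc17a7* and *Slc17a8*, and without that labelled HT-Veh replicate 2 those in HT were −1.08, 0.81 and −1.71, all past the threshold. With gene levels corrected for GC content and length they came to −0.68, 0.42 and −1.11 in WT and −0.64, 0.44 and −1.21 in HT, all still past it. The changes of *Slc17a6* and *Slc17a7* were thus over 1.5 times smaller, and those of *Slc17a8* less so. Without WT-Veh replicates 1 and 2, the libraries low in granule cell markers, the WT values were −0.96, 0.58 and −1.65.

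The ratio of *Slc17a7* to *Slc17a6* within a mouse does not depend on how the library was scaled. It was 6.28, 6.18, 5.58, 5.33 and 6.89 in P10 WT mice and 5.44, 5.86, 6.18, 5.44 and 5.82 in P10 HT mice. At P120 it was 19.0, 25.9, 26.3, 16.7 and 12.2 in WT-Veh mice and 39.4, 29.0, 43.5, 10.9 and 11.2 in HT-Veh mice. The balance of the 2 transcripts thus moved toward *Slc17a7* in every mouse, by 1.67 on the log2 scale in WT (3.19-fold) and by 1.98 in HT (3.95-fold). Each had an exact permutation p of 0.00794, the smallest that 5 mice against 5 allow, and an adjusted p of 0.0238 over 27 ratio tests. With the GC and length correction the differences were 1.101 and 1.07, with the same exact p. Without the library labelled replicate 2 of its vehicle group the uncorrected difference was 1.57 in WT and 1.89 in HT, again with that exact p.

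*Slc17a8* fell further than *Slc17a6*, the ratio between them dropping by 0.43 in WT and by 0.58 in HT on the log2 scale (two-sided exact permutation test, p = 0.0159 in each, adjusted p = 0.0306). These groups overlapped. The GC and length correction cannot bear on this ratio, since both genes had the same value subtracted in these mice. Without the libraries labelled replicate 2 the ratio differed by −0.54 in WT and −0.63 in HT (exact permutation p = 0.00794 and 0.0159). In WT the p was 0.0556 to 0.0635 in the exact permutation test when any 1 of the P10 WT mice was left out.

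**Figure D2:**
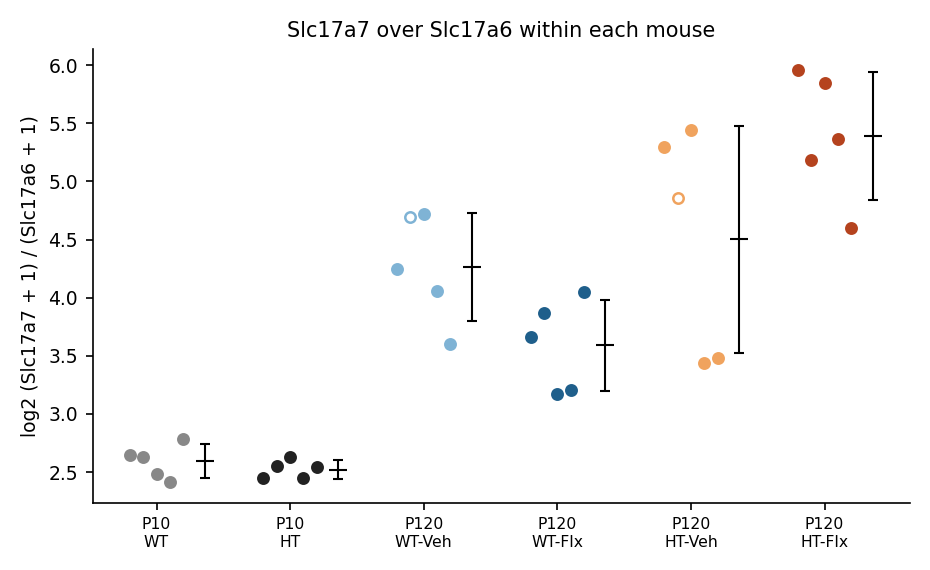
log2 ratio of Slc17a7 to Slc17a6 normalized counts (1 added to each) within each mouse in the 6 groups; points are mice, with the mean and SD beside them, and open points are the libraries labelled replicate 2 of both vehicle groups. The 10 P10 mice sit between 2.41 and 2.78, the WT-Flx mice between 3.17 and 4.05 and the HT-Flx mice between 4.60 and 5.96.

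The change with age was not shown to differ between the genotypes for any of the 3 genes. The difference of the changes, HT minus WT, was −0.11 (standard error 0.23) for *Slc17a6*, 0.20 (standard error 0.27) for *Slc17a7* and −0.25 (standard error 0.21) for *Slc17a8*, with adjusted p of 0.912, 0.881 and 0.877 (limma). Over all genes, 0 of 17978 (0%) passed limma's adjusted threshold and 612 had an unadjusted p under 0.05. Without both libraries labelled replicate 2 the 3 values were −0.08, 0.25 and −0.17.

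At P10, HT mice had more *Slc17a8* than WT mice, while the groups overlapped for *Slc17a6* and *Slc17a7*. The *Slc17a8* difference held for single values of the mice but did not pass the test over all genes. The lowest HT value of *Slc17a8* was 339 and the highest WT value 290.3, so the groups did not overlap. The log2 fold change was 0.37 (standard error 0.066, 1.29-fold, unadjusted p = 8.07e-05, adjusted p = 0.123, limma). As a single value it had an exact permutation p of 0.00794, the smallest this design allows. *Slc17a6* differed by 0.03 (standard error 0.038) and *Slc17a7* by −0.04 (standard error 0.058). Of the 17896 genes tested, 4 (0.0224%) passed the threshold, and 3.12% had groups that did not overlap.

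The 5 P10 WT values of *Slc17a8* were unusually close together. Their coefficient of variation was 0.775%, and none of the 2149 genes whose P10 WT mean was within 1.5-fold of that of *Slc17a8* had a smaller one; the median of these genes was 8.93%. In P10 HT mice the coefficient was 7.499%, against a median of 9.57% for genes of like level.

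Within a mouse, *Slc17a8* relative to *Slc17a6* was higher in HT by 0.34 on the log2 scale, and relative to *Slc17a7* by 0.41. Neither ratio overlapped between the genotypes (exact permutation test, p = 0.00794 and adjusted p = 0.0238 for each). Once corrected for GC and length, the differences were 0.33 and 0.30. The ratio of *Slc17a7* to *Slc17a6* differed by −0.07 (exact permutation p = 0.373). None of the 9 markers of neurons known for VGLUT3, such as *Tph2*, *Chat* and *Cck*, passed the threshold at P10, and their sum was 9107 to 9857 in WT and 9421 to 9620 in HT mice.

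At P120 after vehicle, no difference between HT and WT mice passed the test for any of the 3 genes. In replicates 1, 3, 4 and 5, the mice with a column in the study's own table of this comparison (its figure legend counts all mice), the fitted difference was −0.04 on the log2 scale (standard error 0.26) for *Slc17a6*, 0.21 (standard error 0.30) for *Slc17a7* and 0.20 (standard error 0.24) for *Slc17a8*, each with an adjusted p of 1.00 (limma). The exact permutation p was 0.829, 0.600 and 0.571, where 4 mice against 4 cannot go below 0.0286. In all 5 and 5 mice the values were −0.08, 0.16 and 0.11. Over all genes, 0 of 17784 (0%) passed limma's adjusted threshold, 229 had an unadjusted p under 0.05 and 1.04% had groups that did not overlap. A change of *Slc17a8* as large as that at P10 could not be separated from 0 with a standard error of 0.24.

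The HT-Veh mice fell apart for 2 of the genes. Replicates 4 and 5 had high *Slc17a6* and low *Slc17a7*, with ratios of 10.9 and 11.2, while replicates 1 and 3 had ratios of 39.4 and 43.5. The GC slope was −0.25 and −0.19 in the first pair and 0.57 and 0.35 in the second. The library labelled replicate 2 lay between the pairs, with a ratio of 29.0 and a GC slope of 0.27.

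The main fits set all fluoxetine mice against all vehicle mice of 1 genotype, without a block for the replicate number. In them no difference passed the threshold for any of the 3 transporters. With such a block, or with all 6 groups in one fit, *Slc17a8* passed it in HT mice, as given under the dependence on processing. *Slc17a7* passed it in WT mice when certain single WT-Veh mice were left out, as given below. *Slc17a6* had 1061, 1666, 973, 2206 and 1713 normalized counts in HT-Flx mice and 2268, 2267, 2955, 3174 and 2213 in WT-Flx mice. *Slc17a7* had 66093, 60585, 55969, 90993 and 41465 in HT-Flx mice and 28662, 33193, 26675, 29210 and 36564 in WT-Flx mice. *Slc17a8* had 63.2, 89.9, 46.4, 98.1 and 49.1 in HT-Flx mice and 137, 142, 129, 95.0 and 129 in WT-Flx mice. The lowest HT-Flx value of *Slc17a7* lay above the highest WT-Flx value, and the highest HT-Flx value of *Slc17a6* just below the lowest WT-Flx value.

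In HT mice, *Slc17a8* was lower after fluoxetine in every mouse than in any vehicle mouse. The log2 fold change was −0.75 (standard error 0.23, unadjusted p = 0.00573, adjusted p = 0.215, limma), with an exact permutation p of 0.00794 as a single value. *Slc17a6* differed by −0.46 (standard error 0.25, adjusted p = 0.237, limma) and *Slc17a7* by 0.43 (standard error 0.28, adjusted p = 0.295, limma), with overlapping groups. Over all genes, 0 of 17676 (0%) passed limma's adjusted threshold, 4082 had an unadjusted p under 0.05 and 1.62% had groups that did not overlap. Corrected for GC and length, the *Slc17a8* difference was −0.32 (adjusted p = 0.522, limma), and without the library labelled HT-Veh replicate 2 it was −0.76, beside −0.52 for *Slc17a6* and 0.46 for *Slc17a7*. With all 6 groups in one limma fit the same −0.75 had an adjusted p of 0.0155, in a fit that called 5948 genes.

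In WT mice each difference had the other sign. *Slc17a7* differed by −0.40 between WT-Flx and WT-Veh (standard error 0.11, unadjusted p = 0.0035, adjusted p = 0.0887, limma), *Slc17a6* by 0.27 (standard error 0.16, adjusted p = 0.293) and *Slc17a8* by 0.27 (standard error 0.20, adjusted p = 0.384). The groups of all 3 genes overlapped. Over all genes, 0 of 17865 (0%) passed limma's adjusted threshold, 4504 had an unadjusted p under 0.05 and 6.41% had groups that did not overlap. Without WT-Veh replicate 1 or without WT-Veh replicate 5, *Slc17a7* passed the threshold (−0.43 and −0.46, adjusted p = 0.0494 and 0.0495, limma), and without the library labelled WT-Veh replicate 2 its difference was −0.32 (adjusted p = 0.196), beside 0.24 for *Slc17a6* and 0.35 for *Slc17a8*. After the GC and length correction the 3 differences were between −0.11 and 0.06.

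Relative to *Slc17a7*, *Slc17a8* fell by 1.18 on the log2 scale with fluoxetine in HT mice and rose by 0.67 in WT mice (exact permutation test, p = 0.0159 and adjusted p = 0.0306 for each). The groups overlapped in both. With the GC and length correction the differences were −0.40 (exact permutation p = 0.0794) and 0.17 (exact permutation p = 0.238). Without the libraries low in granule cell markers the WT difference was 0.84, in 3 mice against 3, where the exact permutation p cannot go below 0.1. Without the libraries labelled replicate 2 the differences were −1.22 in HT and 0.67 in WT (exact permutation p = 0.0159 and 0.0238). The ratio of *Slc17a7* to *Slc17a6* differed by 0.89 in HT mice (exact permutation p = 0.135) and by −0.67 in WT mice (exact permutation p = 0.0556). The WT value was −0.84 without WT-Veh replicate 5 and −0.79 without WT-Flx replicate 5 (exact permutation p = 0.0159 and 0.0397). Without the libraries labelled replicate 2 the ratio differed by 0.98 in HT and −0.57 in WT (exact permutation p = 0.143 and 0.111).

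Among fluoxetine mice, HT differed from WT in all 3 genes. *Slc17a7* was higher in HT-Flx by 0.99 on the log2 scale (standard error 0.17, 1.99-fold, adjusted p = 0.000316, limma). *Slc17a6* was lower by 0.81 (a log2 fold change of −0.81, standard error 0.21, adjusted p = 0.00464, limma) and *Slc17a8* by 0.91 (−0.91, standard error 0.22, adjusted p = 0.0030, limma). These calls stand in a comparison in which 63.7% of the 17799 genes tested passed, and 48.5% had groups that did not overlap, as *Slc17a6* and *Slc17a7* did. Once corrected for GC and length, none of the 3 passed the threshold, with differences of −0.03 for *Slc17a6* (adjusted p = 0.899), 0.25 for *Slc17a7* (adjusted p = 0.148) and −0.13 for *Slc17a8* (adjusted p = 0.648, limma), while 6390 genes still did. Without WT-Flx replicates 2 and 5, which were low in granule cell markers, the uncorrected values were −0.93, 1.12 and −0.83, all past the threshold.

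The ratio of *Slc17a7* to *Slc17a6* was 62.3, 36.4, 57.5, 41.2 and 24.2 in HT-Flx mice and 12.6, 14.6, 9.03, 9.20 and 16.5 in WT-Flx mice. The groups did not overlap, and the difference was 1.80 on the log2 scale (3.48-fold, exact permutation p = 0.00794, adjusted p = 0.0238). Corrected for GC and length, it was 0.28 (exact permutation p = 0.238). The ratio of *Slc17a8* to *Slc17a6*, which have a like GC content, differed by −0.10 (exact permutation p = 0.651), and *Slc17a8* relative to *Slc17a7* by −1.90 (exact permutation p = 0.00794, adjusted p = 0.0238), or −0.38 when corrected (exact permutation p = 0.0873).

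**Figure D3:**
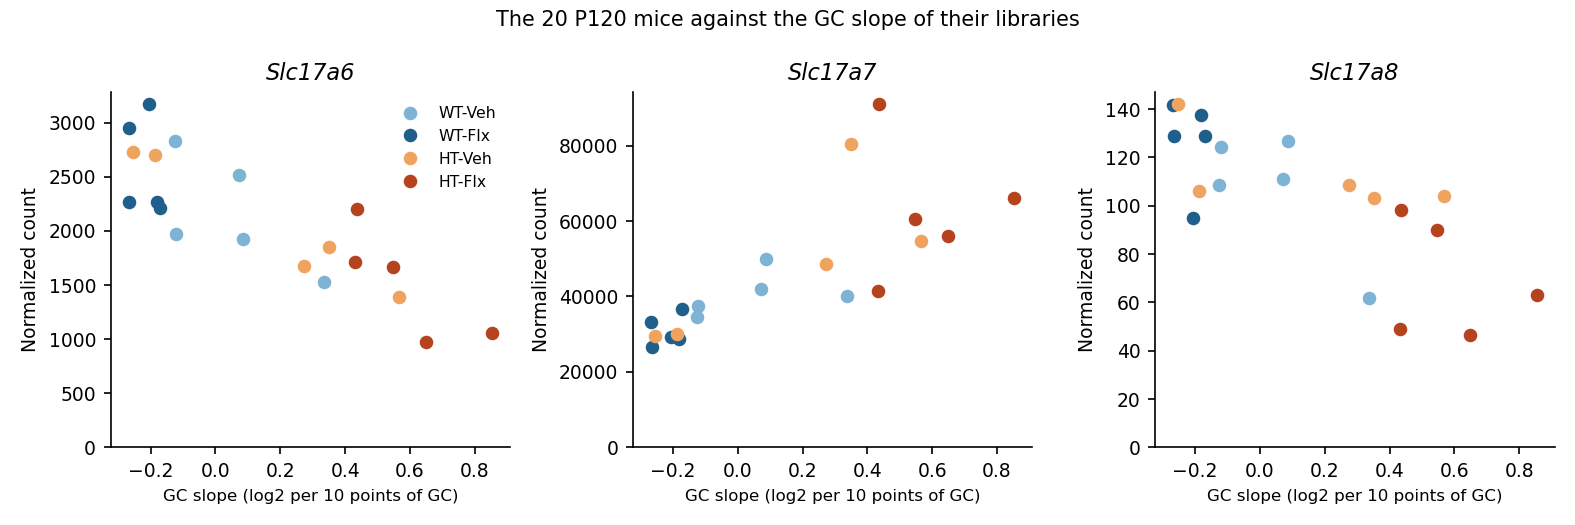
Normalized count (y axis, linear, from 0) of each transporter gene against the GC slope of the library (x axis, log2 per 10 points of GC) in the 20 P120 mice, coloured by group. The WT-Flx mice have slopes of −0.27 to −0.17 and the HT-Flx mice of 0.43 to 0.85, and HT-Veh replicates 4 and 5, with the lowest slopes of their group, have its lowest Slc17a7 and highest Slc17a6.

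The change with fluoxetine differed between the genotypes for *Slc17a8*, by −1.02 on the log2 scale (standard error 0.31, adjusted p = 0.0347, limma). For *Slc17a6* the difference was −0.73 (standard error 0.32, adjusted p = 0.0825) and for *Slc17a7* 0.83 (standard error 0.32, adjusted p = 0.0563), neither past the threshold. Leaving out HT-Flx replicate 4 or HT-Veh replicate 1 brought *Slc17a6* past it (−0.88 and −0.86), and leaving out HT-Flx replicate 5, HT-Veh replicate 1 or HT-Veh replicate 3 did so for *Slc17a7* (0.97, 0.90 and 1.04). Of the 17796 genes tested, 27.3% passed it. The call of *Slc17a8* was lost without the library labelled WT-Veh replicate 2 (−1.10, adjusted p = 0.0538) and without both libraries labelled replicate 2 (−1.11, adjusted p = 0.0576), and after the GC and length correction, where the difference was −0.37 (adjusted p = 0.419) and 0 genes passed. Without the 4 libraries low in granule cell markers it was lost as well (−1.13, adjusted p = 0.0981). It was also lost when any 1 of 8 other libraries was left out, HT-Flx replicates 1 and 3, WT-Flx replicates 2 and 3, HT-Veh replicates 4 and 5 and WT-Veh replicates 3 and 4, with values of −1.05 to −0.84 (adjusted p = 0.0519 to 0.0762, limma). The number of genes past the threshold ran from 0 to 7667 when single libraries were left out.

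For the ratios, the same difference was 1.56 for *Slc17a7* over *Slc17a6* (exact permutation p = 0.0114, adjusted p = 0.0306) and −1.85 for *Slc17a8* over *Slc17a7* (exact permutation p = 0.000252, adjusted p = 0.0068). Without both libraries labelled replicate 2 they were 1.54 and −1.89. After the GC and length correction the first was 0.27 (exact permutation p = 0.363) and the second −0.56 (exact permutation p = 0.0234).

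**Figure D4:**
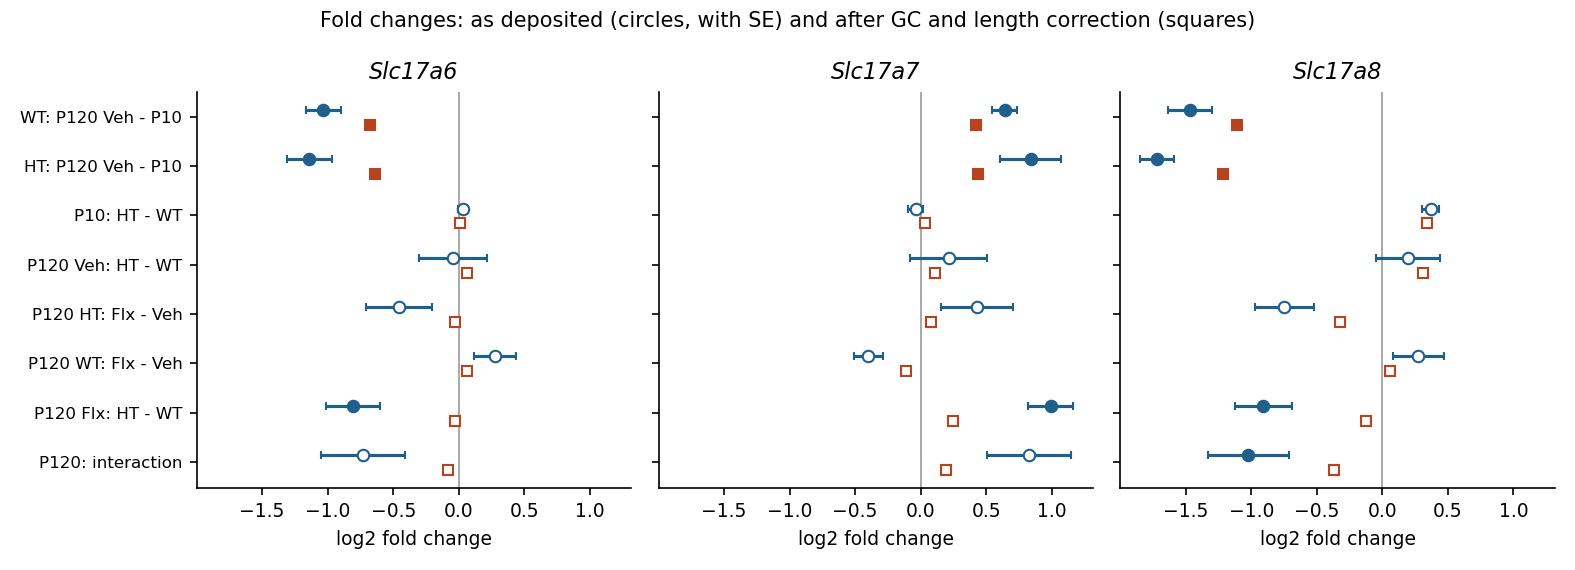
log2 fold changes of each transporter gene in 8 comparisons, as deposited (circles, bars are the standard error from limma) and corrected for GC content and length (squares, no error drawn); filled symbols had an adjusted p under 0.05 over all genes. The changes with age stay past the threshold after the correction, and those between HT-Flx and WT-Flx move to −0.03, 0.25 and −0.13.

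The 4 P120 libraries low in granule cell markers were all WT. Their *Slc17a8* values, 124 and 127 in WT-Veh and 142 and 129 in WT-Flx, were among the 6 highest of the 10 WT values at P120, and their *Slc17a6* lay between 1928 and 2267. Within WT-Flx, replicates 2 and 5 had the highest *Slc17a7*, 33193 and 36564, and *Slc17a6* at 2267 and 2213. *Slc18a2* (VMAT2, for monoamines) was also lowest in these 4 of the 10 WT libraries at P120. It had 250 and 276 normalized counts in WT-Veh and 350 and 285 in WT-Flx, against 386 or more in the others. *Slc18a3* (VAChT) did not separate them, at 237 in WT-Veh replicate 2 and 194 in WT-Veh replicate 5. The part of cerebellar or other regional content in these values was not tested beyond leaving the 4 libraries out.

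**Figure D5:**
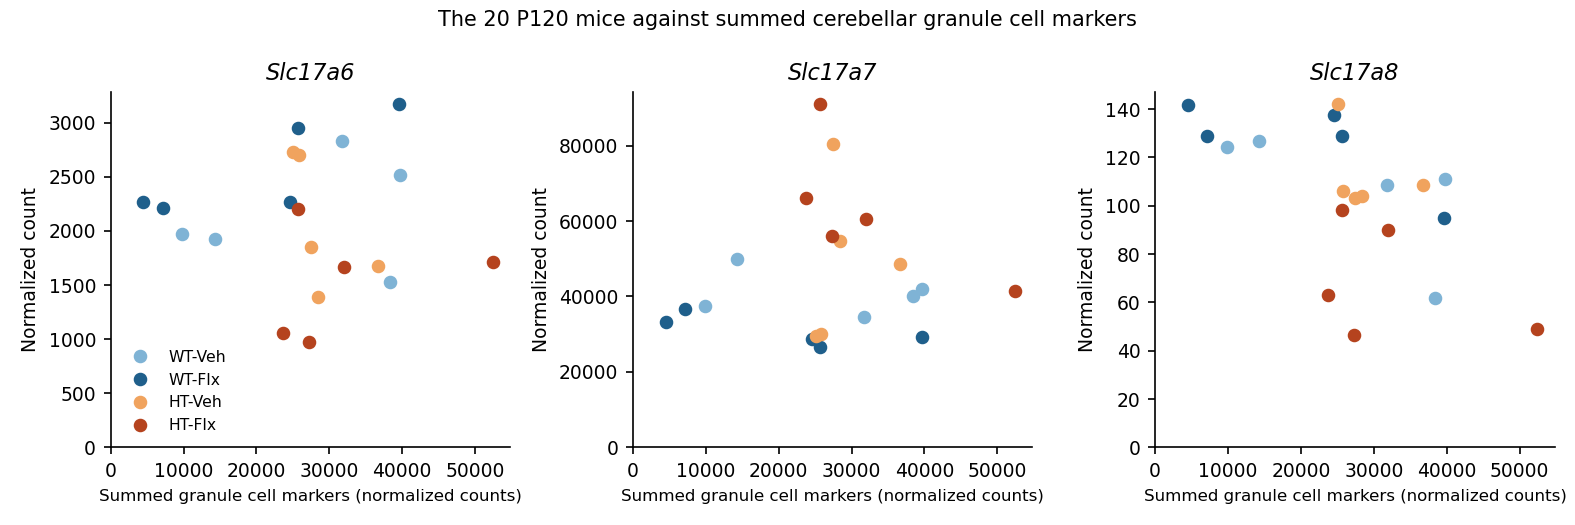
Normalized count (y axis, linear, from 0) of each transporter gene against the sum of 9 cerebellar granule cell markers (x axis, normalized counts) in the 20 P120 mice, coloured by group. The 4 libraries with sums under 20000 are 2 WT-Veh and 2 WT-Flx mice, and all HT mice lie at 23696 or above.

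Of the other vesicular transporters, *Slc32a1* (VGAT, which loads GABA and glycine) rose with age, by 0.68 on the log2 scale in WT (adjusted p = 1.80e-05) and by 0.96 in HT (adjusted p = 0.00151, limma). Its mean was 4689 normalized counts in P10 WT, 4445 in P10 HT, 7542 in WT-Veh, 6140 in WT-Flx, 8979 in HT-Veh and 11890 in HT-Flx. *Slc18a3* (VAChT, for acetylcholine) also rose, by 0.51 in WT and 0.72 in HT (adjusted p = 0.016 and 0.0453, limma, the latter 0.100 without the library labelled HT-Veh replicate 2), with means of 148 and 147 at P10 and 214, 179, 255 and 355 in the P120 groups in the same order. *Slc18a2* (VMAT2, for monoamines) fell in HT by 0.56 (adjusted p = 0.0166, limma), with means of 548 and 604 at P10 and 435, 473, 421 and 339 at P120. After the GC and length correction the calls of *Slc18a3* with age were lost (0.29 in WT and 0.34 in HT, adjusted p = 0.0803 and 0.118, limma), as was that of *Slc18a2* (−0.04, adjusted p = 0.666). *Slc17a5* (sialin) did not pass the threshold with age and had means of 453, 468, 491, 534, 436 and 376. *Slc17a9* (for ATP) and *Slc18a1* (VMAT1) were near the limit of what was tested, with means of 7.16 to 20.4 and 6.68 to 17.7. *Slc17a1* to *Slc17a4* were not analysed here.

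Of 17 genes that supply or clear glutamate, 8 were higher and 3 lower with age in WT, and 7 higher and 3 lower in HT. Of all genes 58.3% and 51.1% passed, so the share that passed was near that of any gene. The list had medians of 0.25 and 0.27 against −0.01 and −0.02 over all genes. The largest rises were in *Gls2*, a glutaminase (1.78 and 1.75), *Glul*, the glutamine synthetase of astrocytes (1.25 in WT), and *Pcx*, pyruvate carboxylase (1.5005 in HT). The largest falls were in *Slc38a5*, a glutamine transporter (−2.71 in both), and *Slc1a1*, a neuronal glutamate transporter (−0.22 and −0.30). Of 17 genes of the vesicle proton pump and the vesicular chloride carrier *Clcn3*, which together set the gradient that drives loading, 7 were higher and 2 lower in WT and 5 higher and 1 lower in HT. *Atp6v0b* rose most (0.45 and 0.73) and *Clcn3* fell (−0.23 and −0.43). Without the libraries labelled replicate 2 the supply list gave 8 higher and 3 lower in WT and 7 and 2 in HT, and the pump list 7 and 1 in WT and 5 and 1 in HT.

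Markers of the neurons that use each transporter are read against the same 58.3% and 51.1% of all genes. Of 12 cortical and hippocampal glutamatergic markers, 4 were higher and 4 lower in WT and 2 higher and 5 lower in HT. *Nptx1* rose most (1.77 and 1.95), and *Neurod6* was among those that fell (−0.72 and −0.66). Of 18 thalamic and other subcortical markers, 3 were higher and 7 lower in each genotype, with *Prkcd*, a thalamic marker, up by 1.60 and 1.49 and *Barhl1* lower (−2.47 and −2.18). Thalamic markers did not all rise: *Tcf7l2* had means of 1913 in P10 WT and 2092 in P10 HT. Its means were 934 in WT-Veh and 911 in HT-Veh. Of 9 granule cell markers, 1 was higher and 4 lower in WT and 3 higher and 5 lower in HT. *Cbln3* of mature granule cells rose by 1.48 and 1.90 and *Atoh1* of their progenitors fell (−5.02 and −4.56, values that depend on the 1 added to levels of 0). Of 9 markers of neurons known for VGLUT3, 4 were higher and none lower in both genotypes, *Chat*, *Sncg*, *Cck* and *Slc18a3*, while *Slc17a8* itself fell. Of 6 pan-neuronal genes, 3 rose and none fell in both, and of 12 glial and vessel genes, 2 rose and 4 fell in WT and 3 rose and 1 fell in HT. Of 4 blood and other-tissue genes, *Hba-a1* fell in WT and none passed in HT. Without the libraries labelled replicate 2, each of these counts in 1 direction moved by at most 1. The granule cell list gave 4 higher and 3 lower in WT without the libraries low in those markers. With the GC and length correction 59.7% of all genes passed in WT and 56% in HT. The VGLUT3-neuron markers then gave 2 higher in WT (median 0.03) and 5 in HT, and none lower. Cortical markers gave 4 higher and 5 lower in WT and 3 and 3 in HT. Subcortical markers gave 3 and 6 in WT and 3 and 8 in HT, and pan-neuronal genes 1 and 1 in WT and 1 and 0 in HT.

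Between HT-Flx and WT-Flx, where 63.7% of all genes passed, 9 of the 17 glutamate supply genes were higher and 4 lower, with a median of 0.36 against 0.02 over all genes. *Slc1a6*, a Purkinje cell glutamate transporter, and *Pcx* were highest (1.19 and 1.11), and *Slc1a3*, an astrocyte glutamate transporter, was among those that were lower (−0.75). Purkinje cells are cerebellar, and the value of *Slc1a6* without WT-Flx replicates 2 and 5 is not given here. Of the proton pump genes, 8 were higher and 5 lower, led by *Atp6v0b* and *Atp6v0a1* (0.82 and 0.74) and by *Atp6v1a* and *Clcn3* (−0.95 and −0.88). The other vesicular transporters gave 2 higher, *Slc18a3* (1.09) and *Slc32a1* (0.95), and 1 lower, *Slc17a5* (−0.50). Without WT-Flx replicates 2 and 5 they gave 2 higher and 2 lower, with *Slc18a2* then past the threshold (−0.83, adjusted p = 0.0199, limma). After the GC and length correction they gave 1 higher, *Slc32a1* (0.21), and none lower. The cortical markers gave 6 higher and 2 lower of 12, the subcortical ones 6 higher and 3 lower of 18, the granule cell ones 1 higher of 8 tested (*Cbln1*, 1.47, or 0.60 without WT-Flx replicates 2 and 5, the libraries low in these markers, and not past the threshold after the GC and length correction, at 0.87) and the markers of neurons known for VGLUT3 4 higher and 2 lower of 9. Of pan-neuronal genes 4 were higher and 2 lower, of glial and vessel genes 4 and 4, and of blood and other-tissue genes 1 was higher (*Hba-a1*, 0.79). In the uncorrected values, pan-neuronal genes split as the transporters did, with *Syp* at 0.91 and *Snap25* at −0.76. Among the VGLUT3-neuron markers, the serotonergic genes *Slc6a4* and *Fev* were higher (1.61 and 1.33) and *Slc5a7*, the choline transporter, lower (−1.32). The serotonergic gene *Tph2* had means of 234 in HT-Flx and 224 in WT-Flx. Other cholinergic markers did not follow *Slc5a7*: *Chat* had means of 221 and 198, and *Slc18a3* was higher. *Slc18a3* and *Slc1a3* each stand in a pair of these lists. The GC slopes of the HT-Flx and WT-Flx libraries do not overlap. After the GC and length correction 35.9% of all genes passed, and the counts were 8 higher and 1 lower for the supply genes, 10 and 1 for the pump genes, 2 and 2 for the cortical markers, 1 and 2 for the subcortical ones and none for the VGLUT3-neuron markers. The split of the pan-neuronal genes was then gone, with 2 higher and 0 lower and a median of 0.0015.

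In the difference of the fluoxetine changes, where 27.3% of all genes passed, 6 of the glutamate supply genes were higher and none lower, led by *Pcx* (0.97), and 5 of the proton pump genes were higher and 4 lower. *Slc32a1* was the only other vesicular transporter past the threshold (0.75). Of the cortical markers 3 were higher and of the pan-neuronal genes 3, *Slc5a7* was lower (−1.49) and of the glial and vessel genes 2 were lower. The subcortical, granule cell and blood lists gave none. No gene of any list, and 0 genes in all, passed limma's threshold with the GC and length correction, without both libraries labelled replicate 2 or without the libraries low in granule cell markers. At P10, where 0.0224% of all genes passed, no gene of these lists passed other than *Hbb-bs* of blood, lower in HT (−0.77). In the main fits, of only the groups compared and without a replicate block, fluoxetine within a genotype and genotype after vehicle gave none. In each of these main fits 0% of all genes passed, so this says nothing particular about the lists. Some other settings called genes, as given under the dependence on processing.

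Over the 30 mice, deviations of *Slc17a6* and *Slc17a7* from their group means had r = −0.32 (Spearman's rho −0.44, permutation p = 0.266 and 0.0579, adjusted p = 0.399 and 0.174 over 3 pairs). Without the 2 mice farthest from the median of *Slc17a6*, r was −0.61, and within the P10 and the P120 mice it was −0.09 and −0.32. *Slc17a6* and *Slc17a8* had r = 0.44 (rho 0.28, permutation p = 0.101 and 0.214, adjusted p = 0.304 and 0.321), which came to 0.23 without the farthest 2, and *Slc17a7* and *Slc17a8* had r = 0.16 (rho −0.01, permutation p = 0.494 and 0.957), which came to 0.40, and to −0.55 within the P10 and 0.18 within the P120 mice. None of these relations passed the test. With the GC and length correction the 3 values of r were −0.17, −0.05 and 0.53.

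Among 13195 genes with a mean of at least 100, those whose deviations followed a transporter most closely over the 30 mice differed between the 3. For *Slc17a6* they were *Kcnd2* (r = 0.97), *Wwp1*, *Camk2d*, *Fut8* and *Hif1a* (0.95 each). For *Slc17a7* they were *Pcdh1*, *Cbarp*, *Fam131a*, *Ncdn* and *Tmem151a* (0.97 each), and for *Slc17a8* they included *Rorb*, *Dbpht2*, *Abi2* and *Sowaha* (0.83 to 0.85). These values are a description of 30 libraries that share the differences in GC slope given above. The 5 genes closest to *Slc17a7* had a GC content of 56.5% to 63.6% and those closest to *Slc17a6* one of 39.6% to 44.4%. With the GC and length correction r was 0.51 to 0.92 for the 5 genes of *Slc17a6*, 0.85 to 0.92 for the 5 genes of *Slc17a7* and 0.30 to 0.78 for those named for *Slc17a8*.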

How the data were processed

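Whole-brain RNA of 30 male mice was sequenced as poly-A RNA-Seq. Per the study's methods and the submitters' processing notes, the authors quantified transcripts with Salmon 1.1.0 against GRCm38 and normalized gene values with DESeq2 1.30.1. The study's methods name a GC bias correction in Salmon. The deposited unit is a normalized signal per gene that is not a whole number of reads, so no count model was used and the read depth is unknown. All 30 libraries are on 1 scaling, with a median ratio to the mean library of 1.0137 in each.

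Groups came from the labels. Each of 9 comparisons was fitted with limma 3.58.1 in R 4.3.3 on log2(value + 1), with an intensity trend, over genes with a mean of at least 10 in the libraries compared. The threshold was a Benjamini-Hochberg adjusted p under 0.05 over all genes tested. Fold changes on this scale understate the change of low genes. Ratios between transporters were taken per mouse and compared by two-sided exact permutation tests, with 27 tests adjusted together. The smallest p is 0.00794 for 5 mice against 5. For the GC and length correction, genes were put in 100 bins of GC content by length, and in each library the mean deviation of a bin's genes from their means over the libraries compared was subtracted from them. The fits were tested on simulated data.

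The transporters, the gene lists and the tests were chosen with earlier results of these data known. Named list genes were all those past the threshold where a list had 5 or fewer, and otherwise the 2 largest rises and falls; a few genes that the rules name are not reported here. Alternatives were another pseudocount, filter or trend, a replicate block, the GC and length correction, all groups in one fit and leaving out libraries. The libraries are separate mice, and several comparisons share control groups. Promoters came from RefSeq (GRCm38.p6).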

Additional observations from a re-analysis of the deposited data

Results flagged for a closer look

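*Slc17a8* had 62.0 normalized counts in WT-Veh replicate 3, 95.0 in WT-Flx replicate 4 and 142 in HT-Veh replicate 4, each far from the other 4 mice of its group by Dixon's test. Of 36 groups of 5 values tested, these 3 stood apart, and chance alone marks about 1 in 20. The change with fluoxetine differed between HT and WT mice by −1.02 on the log2 scale for *Slc17a8* (adjusted p = 0.0347, limma), by 1.56 for the ratio of *Slc17a7* to *Slc17a6* (exact permutation p = 0.0114) and by −1.85 for the ratio of *Slc17a8* to *Slc17a7* (exact permutation p = 0.000252). With the GC and length correction these were −0.37, 0.27 and −0.56, and the last kept an exact permutation p of 0.0234.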

How the results depend on the processing

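Of 524 values recomputed under the alternatives other than leaving out 1 library at a time, 463 stayed the same, 15 changed sign and 46 changed otherwise. Fold changes and ratios counted as the same where they kept their direction and their side of the threshold. Numbers of genes called did so where they stayed within a set fold range of the main number. The cause of the changes was not tested. Read depth is unknown, so its limit on *Slc17a8*, the lowest of the 3 genes, could not be given. With the replicate block, a sign-flip test over 5 pairs that cannot go below 0.0625, values were 1.67 for Slc17a7 over Slc17a6 for age in WT, −0.43 for Slc17a8 over Slc17a6 for age in WT, −2.11 for Slc17a8 over Slc17a7 for age in WT, 1.98 for Slc17a7 over Slc17a6 for age in HT, −0.58 for Slc17a8 over Slc17a6 for age in HT, −2.56 for Slc17a8 over Slc17a7 for age in HT, 0.34 for Slc17a8 over Slc17a6 for genotype at P10, 0.41 for Slc17a8 over Slc17a7 for genotype at P10, −1.18 for Slc17a8 over Slc17a7 for fluoxetine in HT, 0.67 for Slc17a8 over Slc17a7 for fluoxetine in WT, 1.80 for Slc17a7 over Slc17a6 for genotype after fluoxetine, −1.90 for Slc17a8 over Slc17a7 for genotype after fluoxetine. With the GC and length correction, values were −0.028 for Slc17a7 over Slc17a6 for the difference in age change, 0.029 for Slc17a7 over Slc17a6 for genotype at P10, 0.20 for Slc17a8 over Slc17a7 for genotype after vehicle, −0.40 for Slc17a8 over Slc17a7 for fluoxetine in HT, 0.17 for Slc17a8 over Slc17a7 for fluoxetine in WT, 0.28 for Slc17a7 over Slc17a6 for genotype after fluoxetine, −0.38 for Slc17a8 over Slc17a7 for genotype after fluoxetine, 0.27 for Slc17a7 over Slc17a6 for the difference in fluoxetine change, 0.048 for Slc17a6 for the difference in age change, 0.036 for Slc17a7 for genotype at P10, 0.064 for Slc17a6 for genotype after vehicle, −0.026 for Slc17a6 for genotype after fluoxetine, 0.25 for Slc17a7 for genotype after fluoxetine, −0.13 for Slc17a8 for genotype after fluoxetine, 6390 for the number of genes called for genotype after fluoxetine, −0.37 for Slc17a8 for the difference in fluoxetine change, 0 for the number of genes called for the difference in fluoxetine change, −0.051 for the correlation of Slc17a6 and Slc17a8. Without the libraries low in granule cell markers, an alternative chosen after seeing the data, values were 0.11 for Slc17a8 over Slc17a6 for the difference in age change, 0.11 for Slc17a8 over Slc17a7 for genotype after vehicle, 0.062 for Slc17a8 over Slc17a6 for fluoxetine in WT, 0.84 for Slc17a8 over Slc17a7 for fluoxetine in WT (3 mice against 3, where p cannot go below 0.1), 0.10 for Slc17a8 over Slc17a6 for genotype after fluoxetine, −1.13 for Slc17a8 for the difference in fluoxetine change, 0 for the number of genes called for the difference in fluoxetine change. With a pseudocount of 0.1, values were 0.0022 for Slc17a8 over Slc17a6 for fluoxetine in WT. With the replicate block and the GC and length correction, values were 0.048 for Slc17a6 for the difference in age change, 0.036 for Slc17a7 for genotype at P10, 8 for the number of genes called for genotype at P10, 0.064 for Slc17a6 for genotype after vehicle, 2 for the number of genes called for fluoxetine in HT, −0.026 for Slc17a6 for genotype after fluoxetine, 0.25 for Slc17a7 for genotype after fluoxetine, −0.13 for Slc17a8 for genotype after fluoxetine, 5233 for the number of genes called for genotype after fluoxetine, −0.37 for Slc17a8 for the difference in fluoxetine change, 0 for the number of genes called for the difference in fluoxetine change. Without the intensity trend, values were 2 for the number of genes called for the difference in age change. With the replicate block in limma, values were 7 for the number of genes called for genotype at P10, −0.75 for Slc17a8 for fluoxetine in HT (now past the threshold, adjusted p = 0.0419), 1355 for the number of genes called for fluoxetine in HT, −0.73 for Slc17a6 for the difference in fluoxetine change (now past it, adjusted p = 0.0316). With all 6 groups in one fit, values were 0 for the number of genes called for genotype at P10, 1 for the number of genes called for genotype after vehicle, −0.75 for Slc17a8 for fluoxetine in HT (past the threshold, adjusted p = 0.0155), 5948 for the number of genes called for fluoxetine in HT. With a minimum mean of 100, values were 0.83 for Slc17a7 for the difference in fluoxetine change. Without both vehicle libraries numbered 2, values were −1.11 for Slc17a8 for the difference in fluoxetine change, 0 for the number of genes called for the difference in fluoxetine change. The labels do not say that a replicate number marks a litter or day, and whether it does was not tested. Same-numbered mice deviated together by over 0.1 in at most 3 of 5 pairs. For fluoxetine in HT their mean correlation was 0.168, against −0.042 for differently numbered mice. The block therefore rests on a shared number only. The GC and length correction of the correlations, and the list counts without libraries or with that correction, were also chosen after seeing the data. Leaving out 1 library at a time gave −0.54 to −0.34 for Slc17a8 over Slc17a6 for age in WT, −0.085 to 0.58 for Slc17a7 over Slc17a6 for genotype after vehicle, −0.32 to 0.31 for Slc17a8 over Slc17a7 for genotype after vehicle, −0.84 to −0.56 for Slc17a7 over Slc17a6 for fluoxetine in WT, −0.089 to 0.18 for Slc17a8 over Slc17a6 for fluoxetine in WT, −0.28 to 0.064 for Slc17a8 over Slc17a6 for genotype after fluoxetine, −0.22 to 0.022 for Slc17a6 for the difference in age change, −0.0069 to 0.35 for Slc17a7 for the difference in age change, −0.074 to 0.0013 for Slc17a7 for genotype at P10, 3 to 8 for the number of genes called for genotype at P10, −0.21 to 0.15 for Slc17a6 for genotype after vehicle, −0.071 to 0.41 for Slc17a7 for genotype after vehicle, −0.0195 to 0.31 for Slc17a8 for genotype after vehicle, 0 to 1 for the number of genes called for genotype after vehicle, 0 to 1 for the number of genes called for fluoxetine in HT, −0.46 to −0.32 for Slc17a7 for fluoxetine in WT, 0 to 1400 for the number of genes called for fluoxetine in WT, −0.88 to −0.59 for Slc17a6 for the difference in fluoxetine change, 0.68 to 1.04 for Slc17a7 for the difference in fluoxetine change, −1.16 to −0.84 for Slc17a8 for the difference in fluoxetine change, 0 to 7667 for the number of genes called for the difference in fluoxetine change.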
